A study of Mus musculus with 4 samples.

Results

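The matrix metalloproteinases (MMPs), the ADAMTS enzymes and the tissue inhibitors of metalloproteinases (TIMPs) are the secreted and membrane-bound system that cuts, and limits the cutting of, extracellular matrix. All genes named Mmp, Timp or Adamts followed by a number and at most 1 further letter were taken, which gave 45 of the 32285 genes listed, comprising 22 Mmp, 4 Timp and 19 Adamts genes, and the Adamtsl genes, antisense transcripts and opposite-strand transcripts were not included. Their single-cell RNA-seq unique molecular identifier (UMI) counts were compared between 2 libraries of mouse testicular organoids (TOs) and 2 libraries of mouse testes. The TOs had been reconstituted from single-cell suspensions of neonatal mouse testes and cultured at first in extracellular matrix, which the study's methods say was removed partway through the culture, before the cells were collected. The reconstitution limits them as a model to the cells that neonatal testes supply. The study design gives 28-day-old TOs and 28-day-old testes, as do the study's own methods, whereas the dissociation protocol in the labels names TOs of day 21. Both groups were unsorted primary cells of the testis, no strain or treatment beyond culture is named in the labels, and both were dissociated with collagenase I and trypsin. The study describes the TOs as coming from 2 independent batches without saying which library came from which, and it calls the testis libraries biological replicates without saying how many animals each came from, so the p-values measure the spread between these libraries.

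MMPs are zinc enzymes made as inactive precursors. They include the collagenases, the gelatinases, the stromelysins and the membrane-type enzymes that sit on the cell surface and can activate other MMPs. The ADAMTS enzymes are secreted, and different members cut proteoglycans such as versican and aggrecan or trim the amino-terminal propeptides of fibrillar procollagens. The TIMPs bind the active site of these enzymes, and TIMP3 differs from the other inhibitors in staying bound to the matrix and in inhibiting several ADAMTS enzymes as well. In the testis, the seminiferous tubules are bounded by a basement membrane that Sertoli cells and peritubular myoid cells make together, and remodelling of matrix accompanies tubule formation and the movement of germ cells.

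The deposited matrices held 11826 to 14643 barcodes and 74988295 to 119966959 UMIs per library, and 8713 to 9867 cells per library were kept. Kept cells had a median of 5479.5 and 7561 UMIs in the TOs against 2549 and 3271 in the testes, with a median mitochondrial share of 3.37% and 3.38% against 1.18% and 0.810%. Pairs of libraries shared 30 to 55 barcodes. Cells were clustered and the clusters were named here from marker genes, so the names may differ from those of the study. There were 5618 and 6539 spermatid-like cells in the testes against 58 and 40 in the TOs, and 3093 and 3422 interstitial stroma-like cells in the TOs against 602 and 423 in the testes. UMIs were summed per library and cell type, and a level is given as CPM, the UMIs of the gene per 1000000 UMIs of that type, in which each UMI counts 1 molecule irrespective of transcript length. A gene was called where the adjusted p was below 0.01 and the absolute log2 fold change above 1, in the edgeR quasi-likelihood test with Benjamini-Hochberg adjustment over all genes of a type. The testis cells of the 5 somatic types compared also held UMIs of spermatid markers, which summed to 1147 to 3360 CPM there and to at most 3.36 CPM in the TOs.

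The inhibitors and the proteoglycan-cleaving enzymes made up most of the transcripts. The 4 TIMPs had 131709 UMIs over all kept cells, of which Timp2 had 90458. The 7 ADAMTS proteoglycanases had 101085 UMIs, of which Adamts5, a major aggrecan- and versican-cleaving enzyme, had 73619. Lower totals were found for the 9 other ADAMTS genes with 26850 UMIs, the 6 membrane-type MMPs with 18200 and the 3 procollagen N-propeptidases with 12993. The 2 gelatinases had 7477 UMIs, and the 3 collagenases had 177 in all. Of the 45 genes, 22 had over 1000 UMIs, 11 had at most 50 and 1, Mmp7, had none.

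Most of the genes with few UMIs lie side by side. A run of 9 Mmp genes, Mmp13, Mmp12, Mmp1b, Mmp3, Mmp10, Mmp8, Mmp27, Mmp20 and Mmp7, spans 427 kb at chr9:7272514-7699585 (GRCm38), and 7 of them had at most 50 UMIs. Mmp12, the macrophage elastase, had 2330 UMIs and was the exception, followed by Mmp1b, a mouse relative of the interstitial collagenase, with 160. These 2 genes overlap on opposite strands. RefSeq promoters of the run are printed because 7 of its genes share a pair of motifs. Promoters, from 250 bases before to 50 after the start on the gene's own strand, were listed for 31 of the 45 genes, 34 promoters in all. The AP-1 motif TGANTCA (N, any base), searched on both strands, was found in 7 of the 31 genes, namely Mmp10, Mmp12, Mmp13, Mmp1b, Mmp20, Mmp3 and Mmp7, all in the run, and in 7.81% of all 32851 promoters. The TATA box motif TATAAA, which does not overlap it in letters and was also searched on both strands, was found in 10 genes. These were the same 7, Mmp8, Adamts1 and Mmp21, with the match in Mmp8 on the opposite strand only. It was found in 13.6% of all promoters. In the following RefSeq promoters of GRCm38.p6, all on the plus strand, the capitals mark these 2 motifs, with the AP-1 motif first; the Mmp12 sequence belongs to the downstream of its 2 listed starts, the upstream one holding neither motif.
Mmp12, chr9:7347124-7347423: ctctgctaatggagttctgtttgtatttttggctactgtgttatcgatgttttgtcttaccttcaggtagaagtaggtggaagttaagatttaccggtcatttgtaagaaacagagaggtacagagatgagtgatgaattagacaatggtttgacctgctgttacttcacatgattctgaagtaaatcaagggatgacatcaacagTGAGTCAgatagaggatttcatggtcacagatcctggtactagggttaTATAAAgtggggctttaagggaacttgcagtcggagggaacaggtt
Mmp13, chr9:7272264-7272563: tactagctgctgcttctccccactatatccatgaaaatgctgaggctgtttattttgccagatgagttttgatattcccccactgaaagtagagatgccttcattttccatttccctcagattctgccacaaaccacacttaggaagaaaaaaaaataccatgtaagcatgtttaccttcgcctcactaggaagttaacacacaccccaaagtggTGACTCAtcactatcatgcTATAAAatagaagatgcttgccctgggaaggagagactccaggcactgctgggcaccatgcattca
Mmp3, chr9:7445572-7445871: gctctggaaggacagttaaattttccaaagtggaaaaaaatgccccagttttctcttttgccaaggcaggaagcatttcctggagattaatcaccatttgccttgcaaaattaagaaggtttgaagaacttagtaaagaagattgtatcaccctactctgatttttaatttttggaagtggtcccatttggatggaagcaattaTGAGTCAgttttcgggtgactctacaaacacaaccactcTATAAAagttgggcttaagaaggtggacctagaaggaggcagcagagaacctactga
Mmp10, chr9:7502092-7502391: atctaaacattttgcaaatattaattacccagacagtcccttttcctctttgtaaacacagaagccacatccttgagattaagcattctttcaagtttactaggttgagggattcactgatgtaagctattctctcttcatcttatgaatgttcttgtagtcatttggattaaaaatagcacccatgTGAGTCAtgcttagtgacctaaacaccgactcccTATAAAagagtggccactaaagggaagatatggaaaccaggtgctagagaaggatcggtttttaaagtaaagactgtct

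Counted from the start as 0, the AP-1 motif began at -44 in Mmp12, -35 in Mmp13, -46 in Mmp3 and -63 in Mmp10. It thus lay within 63 bases of the start in each of the 4 printed. In the genes with both motifs that are not printed, the AP-1 motif began at -93 in Mmp1b, -95 in Mmp20 and -63 in Mmp7. The TATAAA motif began at 4 in Mmp12, -16 in Mmp13, -7 in Mmp3 and -29 in Mmp10, so in Mmp12 it lay after the listed start. These sequences are alike in their motifs, while the genes differed in level, since Mmp13 had 13 UMIs, Mmp3 had 8 and Mmp10 had 1. For Timp1, called in 3 cell types below, the promoter at chrX:20869916-20870215 (plus strand) holds no exact match to either motif. Near matches were not searched, and this promoter does hold tgagtaa, which differs from TGAGTCA in 1 base. The Timp1 promoter is printed for comparison with the 4 above, since these are the inhibitor and the enzymes of one system.
Timp1, chrX:20869916-20870215: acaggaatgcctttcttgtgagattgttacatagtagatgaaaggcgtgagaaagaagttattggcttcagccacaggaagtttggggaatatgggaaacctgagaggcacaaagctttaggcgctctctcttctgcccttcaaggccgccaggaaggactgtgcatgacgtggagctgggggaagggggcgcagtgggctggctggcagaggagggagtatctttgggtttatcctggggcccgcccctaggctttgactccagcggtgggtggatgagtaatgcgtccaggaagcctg

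**Figure D1:**
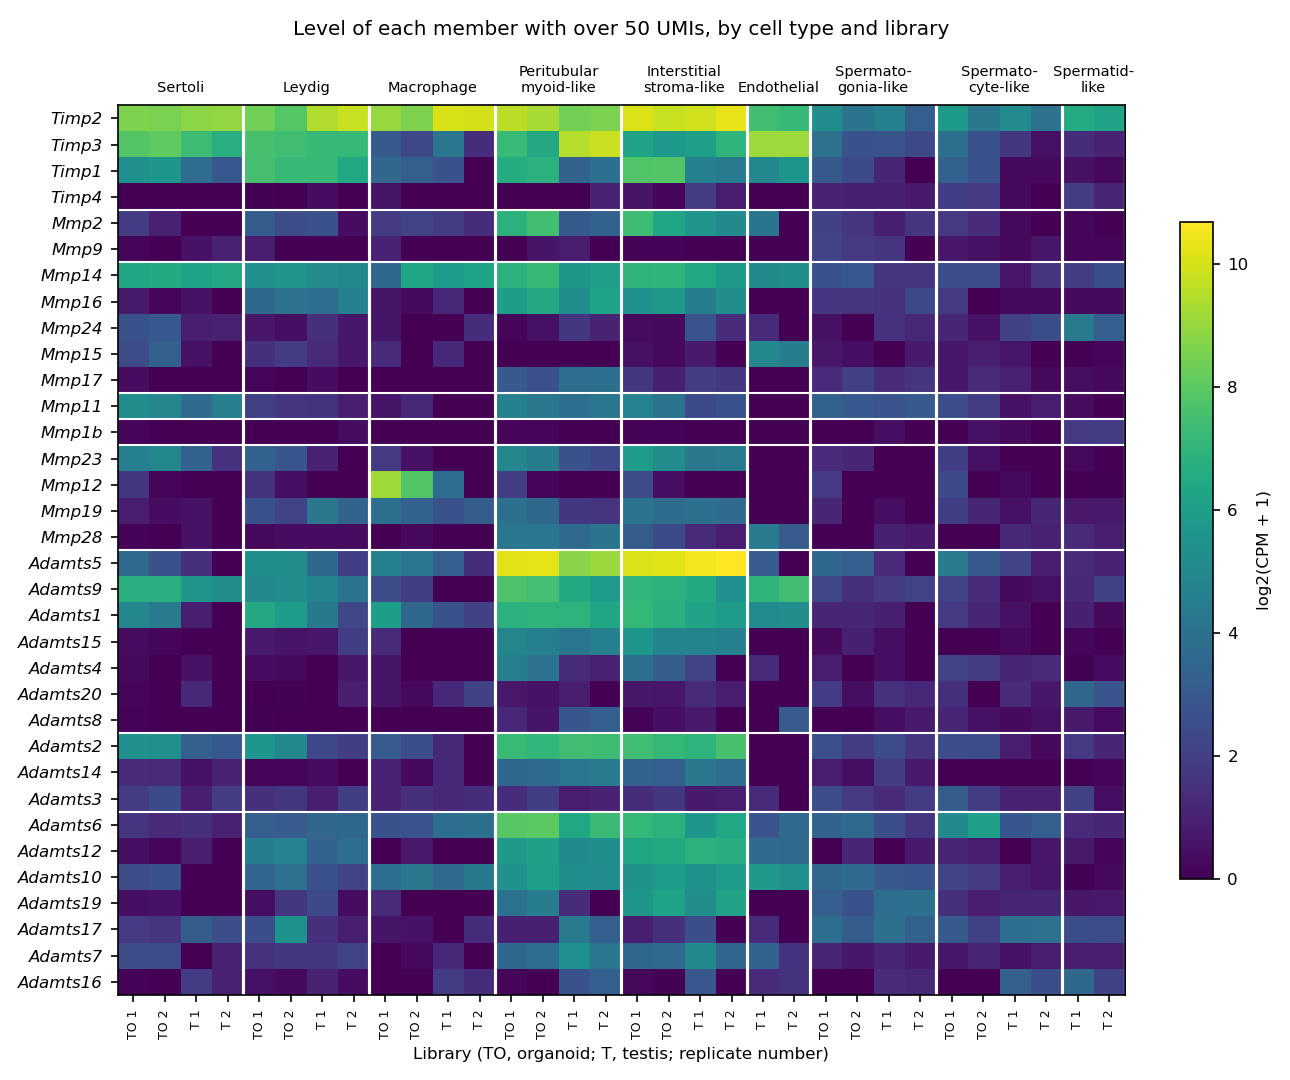
Level of each gene with over 50 UMIs (rows, grouped by role) in each library of each cell type (columns), as log2 of CPM + 1. Endothelial-like and spermatid-like cells are shown for the testes alone. The brightest rows are Timp2 and Adamts5, which reached over 1000 CPM in interstitial stroma-like cells of both groups.

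The enzymes were highest in the mesenchymal cells. By the mean of the libraries, which overlapped between types for some genes, and of the genes with at least 50 CPM in at least 1 type, 15 in the TOs and 13 in the testes, 6 and 5 were highest in interstitial stroma-like cells and 7 and 5 in peritubular myoid-like cells. Only Mmp12, in macrophage-like cells, and Timp3, in Sertoli-like cells, were highest elsewhere in the TOs. In the testes, Timp1 was highest in Leydig-like cells, Mmp14 in Sertoli-like cells and Adamts9 in endothelial-like cells. No gene reached this level in the spermatogonia-like or spermatocyte-like cells. As a group, the ADAMTS genes summed in peritubular myoid-like cells to 2087 and 2139 CPM (TO) against 1088 and 1161 CPM (testis), so the groups did not overlap. In interstitial stroma-like cells, the same sum was 1957 and 1918 CPM against 2068 and 2304. A gene was left out of a type where too few UMIs were found, or where the other cells together held at least 5 times its level in either group. That left 91 comparisons of a gene in a type, over 30 genes, of which 20 were called, 17 higher and 3 lower in the TOs, in 16 genes. The 15 genes compared in no type were Adamts13, Adamts18, Adamts20, Mmp1b, Mmp3, Mmp7, Mmp8, Mmp9, Mmp10, Mmp13, Mmp20, Mmp21, Mmp25, Mmp27 and Timp4, which had from 0 to 551 UMIs each, and no statement is made on their change. Another 14, among them Timp2, Adamts1 and Mmp16, were compared and called in no type. Of all 91 comparisons, 18 passed the fold threshold with an adjusted p between 0.01 and 0.05, and some of these were of genes called in another type, such as Mmp2 and Mmp23.

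Peritubular myoid-like cells, named after the contractile cells around the tubule, held 11 of the 20 calls. Here 9 of the 25 genes compared rose and 2 fell in the TOs, against a background of 3.78% of all genes called higher and 16% called lower, and the median log2 fold change was 0.50 over the genes compared against 0.11 over all genes. The inhibitors moved in opposite directions. Timp3, the matrix-bound inhibitor, stood at 149 and 86.2 CPM in TO replicates 1 and 2 against 716 and 913 in the testes. The groups were far apart and Timp3 fell by 2.81 ± 0.32 (SE) on the log2 scale (adjusted p = 9.48e-05). Timp1, a secreted inhibitor that many cells induce on stimulation, stood at 97.2 and 113 against 9.47 and 14.2 CPM, without overlap, and rose with a log2 fold change of 3.16 ± 0.30 (adjusted p = 3.04e-05). Timp2, the most abundant inhibitor, stood at 768 and 617 against 337 and 383 CPM, and its log2 fold change of 0.92 ± 0.25 did not reach the threshold (adjusted p = 0.0197).

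Among the enzymes, the gelatinase Mmp2, which cuts basement-membrane collagen, had the largest change of an MMP in peritubular myoid-like cells. It stood at 117 and 175 CPM in the TOs against 7.1 and 9.10 in the testes, and its log2 fold change was 4.17 ± 0.36 (adjusted p = 1.56e-05). All organoid libraries were therefore above both testis libraries. Mmp14, the membrane-type enzyme that activates pro-MMP2, was 115 and 144 CPM against 49.7 and 63.7, with a smaller log2 fold change of 1.18 ± 0.25 (adjusted p = 0.00471). Mmp19 and Mmp23, less abundant enzymes, also rose, Mmp19 from 2.37 and 2.02 CPM in the testes to 14.6 and 10.8 in the TOs (adjusted p = 0.00704) and Mmp23 from 5.52 and 4.05 to 29.1 and 21.4 (adjusted p = 0.00182).

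Of the ADAMTS proteoglycanases, 3 rose in peritubular myoid-like cells. Adamts5 was 1192 and 1220 CPM in the TOs against 443 and 542 in the testes (log2 fold change 1.28 ± 0.27, adjusted p = 0.00469), so it was abundant in both groups. Adamts9, a versican-cleaving enzyme, was 210 and 181 CPM against 90.7 and 56.6 (log2 fold change 1.37 ± 0.26, adjusted p = 0.00278). Adamts4, a close relative of Adamts5, was 22.9 and 15.6 CPM against 1.58 and 1.01. That rests on 291 UMIs against 3, a ratio of 14.5 with a 95% counting interval of 4.90 to 70.5 (adjusted p = 0.000768). Adamts1, another proteoglycanase, was 113 and 122 CPM against 118 and 76.9 and was not called (log2 fold change 0.25, adjusted p = 0.483), so the groups overlapped. Adamts8 was 1.32 and 0.528 CPM against 6.31 and 8.09 and just missed the threshold (log2 fold change -2.93 ± 0.71, adjusted p = 0.0103).

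The 2 calls left among the ADAMTS genes of this type rest on few UMIs in 1 group. Adamts19 was 14.8 and 22.4 CPM in the TOs against 1.58 and 0 in the testes, which is 282 UMIs against 2, a ratio of 21.0 with a counting interval of 5.76 to 174 (adjusted p = 0.00155). Adamts16 went the other way, at 0.132 and 0 CPM against 5.52 and 8.09, or 1 UMI against 15, and the testis exceeded the TOs by a ratio of 101 with a counting interval of 15.5 to 4236 (adjusted p = 0.00109). In the testes, Adamts16 was 3.26 and 0 CPM in the larger of the 2 clusters of this type and 11.5 and 30.6 in the smaller. It was not compared in the larger cluster alone, and the part of the smaller one was not tested. Spermatid-like cells held 77.3% and 67.1% of the Adamts16 UMIs of testis replicates 1 and 2. Spermatid markers summed to 2813 and 3033 CPM in peritubular myoid-like cells of the testes against 1.72 and 3.17 in the TOs. The part of spermatid transcripts in this call was not tested. Of 18 alternatives, 9 gave a value for this call, and 1 of these lost it. Adamts2, the main procollagen I N-propeptidase, was 147 and 136 CPM against 169 and 166 and was not called (log2 fold change -0.26, adjusted p = 0.367). The cells compared under this name were pooled from 2 clusters. The smaller, led by Rergl, Mustn1 and other genes, held 21 of 1448 and 19 of 1053 cells in the TOs. In the testes it held 117 of 442 and 77 of 266 cells, and whether these lie around the tubule was not tested. The 2 groups also differed in markers. The summed stroma markers were 4017 and 5520 CPM in the TOs against 2341 and 2470, Tagln, a contractile gene, was 443 and 421 against 4238 and 3525, and the macrophage markers were 60.6 and 41.4 against 3.94 and 6.07, and their part in these results was not tested. With only the cluster that both groups shared best, 6 of the 11 calls were found, namely Adamts19, Adamts4, Mmp2, Mmp23, Timp1 and Timp3, and 6 were also found without testis replicate 1.

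**Figure D2:**
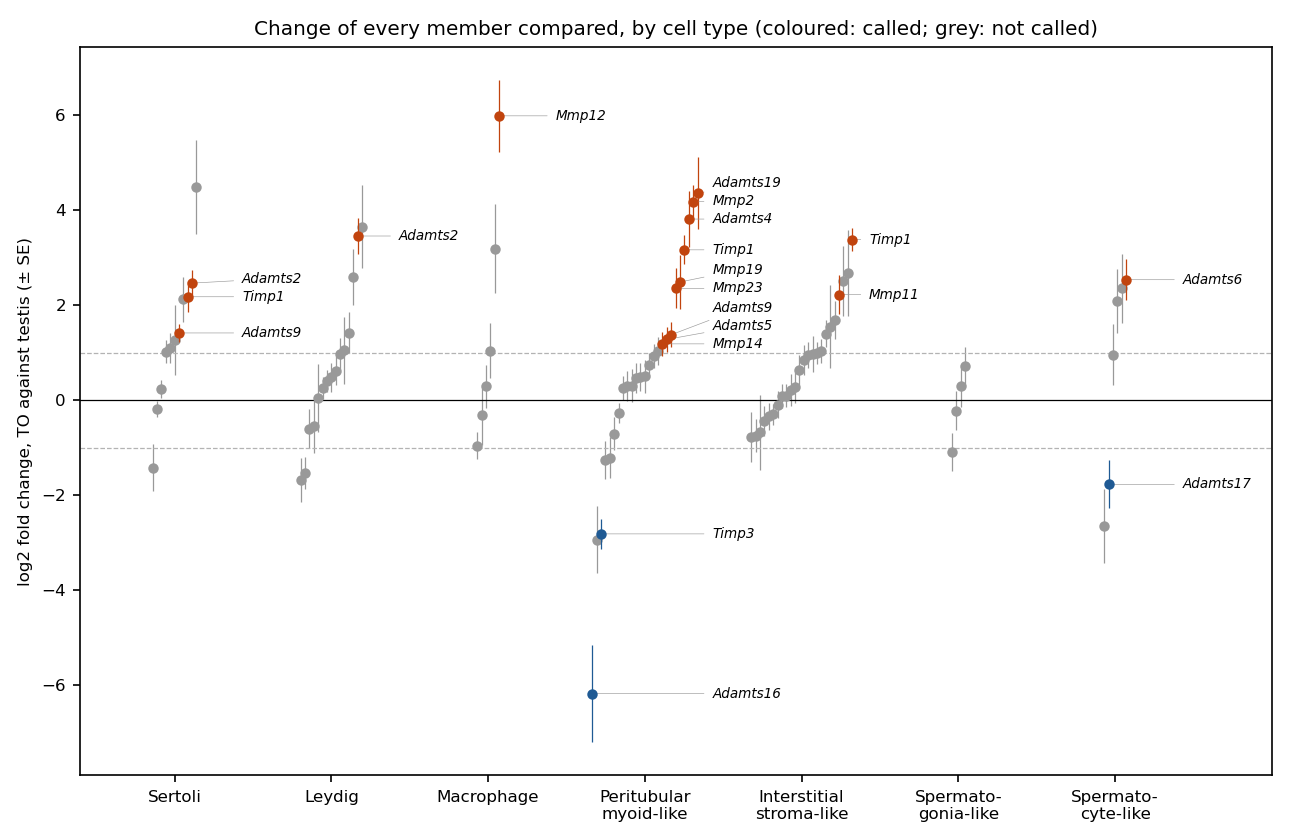
Log2 fold change of each gene compared in each cell type, TO against testis, with bars of 1 SE; coloured points were called and grey points were not. Timp3 in peritubular myoid-like cells, at -2.81, and Timp1 in the same cells, at 3.16, stand on opposite sides of 0.

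A fall of Timp3 was called in no other type compared. Timp3 was 227 and 267 CPM in Sertoli-like cells of the TOs against 160 and 102 in those of the testes (log2 fold change 1.02 ± 0.25, adjusted p = 0.0160), 190 and 171 against 143 and 142 in Leydig-like cells and 75.3 and 51.5 against 64.0 and 122 in interstitial stroma-like cells. None of these was called. Tested directly as a difference from the mean of the other somatic types, the change in peritubular myoid-like cells was lower by 3.05 on the log2 scale (difference -3.05, adjusted p = 9.54e-05) and the change in Sertoli-like cells was higher (difference 2.10, adjusted p = 0.000909). Over all genes, 3.49% and 11% were called for the 2 types. The 2 differences are not separate, since each type is part of the mean used for the other. Within the larger peritubular myoid-like cluster, Timp3 was 148 and 72.1 CPM against 826 and 980. In the smaller one, of 21 and 19 cells in the TOs and 117 and 77 in the testes, it was 233 and 650 against 427 and 728, and the groups overlapped. In the testes, Timp3 was also high in endothelial-like cells at 551 and 556 CPM, and in an unnamed cluster led by pericyte genes at 1382 and 1782 CPM over 105 and 77 cells, against 236 and 116 CPM over 29 and 41 cells in the TOs. In another unnamed cluster, led by Acta2 and other contractile genes, Timp3 was 88.4 and 66.3 CPM in the TOs against 631 and 544 in the testes. The cells of the endothelial-like cluster in the TOs were not compared, because they held only 2 of 6 endothelial markers and no Pecam1.

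**Figure D3:**
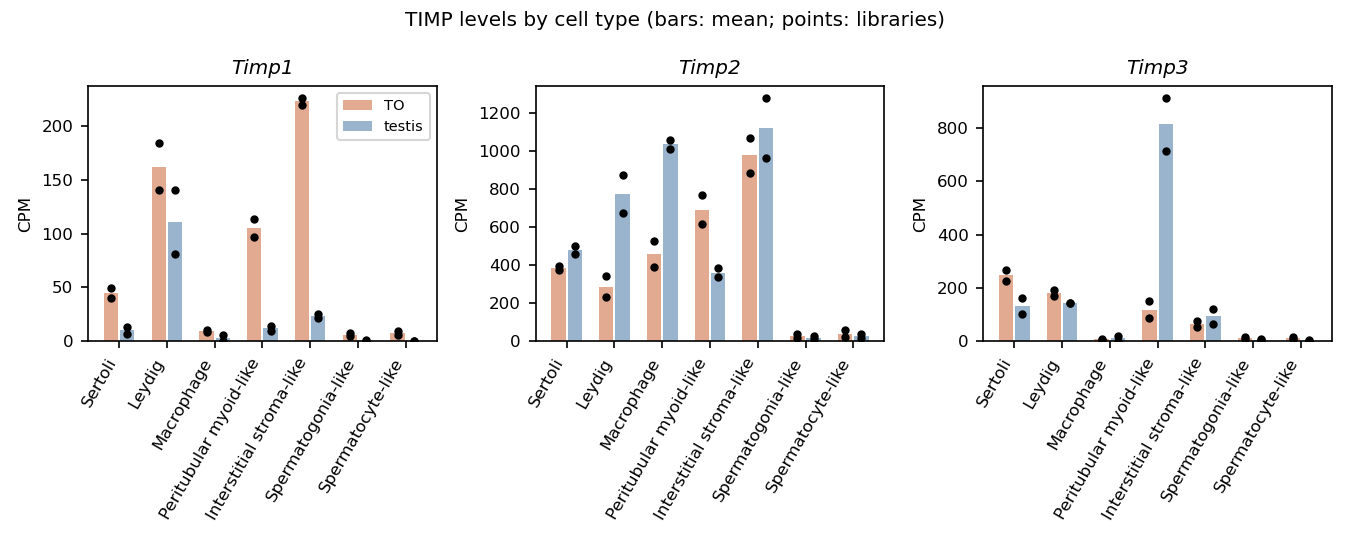
Mean CPM (bars) and each library (points) of Timp1, Timp2 and Timp3 in the types compared, TO against testis. Timp1 was called higher in the TOs in Sertoli-like, peritubular myoid-like and interstitial stroma-like cells, and Timp3 was called lower in peritubular myoid-like cells.

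Interstitial stroma-like cells, the fibroblast-like cells between tubules, held the highest Timp1 in the TOs, though not in the testes. It was 220 and 226 CPM in the TOs against 24.9 and 20.9 in the testes, with a log2 fold change of 3.38 ± 0.24 (adjusted p = 0.000436). Mmp11, stromelysin 3, which mesenchymal cells express in remodelling tissue, was 26.0 and 16.4 against 4.27 and 5.42 CPM and rose with a log2 fold change of 2.22 ± 0.41 (adjusted p = 0.00920). By mean CPM, Mmp11 was highest in Sertoli-like cells in both groups, at 32.3 in the TOs and 17.6 in the testes. There it passed the fold threshold with an adjusted p between 0.01 and 0.05 and was not called. The call of Mmp11 in stroma-like cells was lost in 8 of 17 alternatives, some of which used looser thresholds and could not lose it. In the stroma-like cluster that both groups shared best, the log2 fold change of Mmp11 was 1.01 (adjusted p = 0.214). Of 24 genes compared, these 2 rose and none fell, against 1.75% higher and 13.7% lower over all genes, and the median log2 fold change was 0.74 against 0.10.

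The most abundant genes of the list in these cells did not pass the test. Adamts5 was 1127 and 1157 CPM against 1442 and 1650 (log2 fold change -0.34 ± 0.28, adjusted p = 0.414), Timp2 was 1069 and 887 against 962 and 1280, and Adamts2 was 168 and 140 against 120 and 190. The libraries of Timp2 and of Adamts2 overlapped between the groups. Mmp2 was 164 and 77.4 CPM against 46.3 and 32.5 (log2 fold change 1.68 ± 0.40, adjusted p = 0.0242), Mmp14 was 123 and 128 against 83.3 and 54.2 (adjusted p = 0.0478), and Adamts6 was 139 and 116 against 49.8 and 83.6 (adjusted p = 0.0281). None of these was called. Compared with the other types, the change of Adamts2 (difference -2.31, adjusted p = 0.000488) and of Adamts5 (difference -2.76, adjusted p = 0.000981) was lower here, where 2.67% of all genes were called; when only types that compared the gene were averaged, the difference of Adamts5 was -1.62 and was no longer called (adjusted p = 0.0565). The peritubular myoid markers summed to 2142 and 790 CPM in these cells of the TOs against 330 and 233 in the testes, and their part was not tested.

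Sertoli-like cells, which line the tubule and nurse the germ cells, had 3 of 11 genes higher and none lower, with 6.52% of all genes called higher and 11.3% called lower, and a median log2 fold change of 1.26 against 0.07. Adamts2 was 41.1 and 40.0 CPM against 8.77 and 6.70 (log2 fold change 2.46 ± 0.27, adjusted p = 0.000517), Adamts9 was 105 and 104 against 46.0 and 38.3 (1.41 ± 0.18, adjusted p = 0.00112), and Timp1 was 39.7 and 49.5 against 13.2 and 6.70 (2.17 ± 0.33, adjusted p = 0.00211). In each of the 3 the groups were apart, but they were chosen by a test on these same libraries, so this adds no support. The 7 stroma markers summed to 169 and 113 CPM in these cells of the TOs against 21.5 and 12.4 in the testes, and their part was not tested. Mmp14, at 76.1 and 92.4 against 72.3 and 86.1 CPM, and Timp2, at 392 and 373 against 461 and 499 CPM, were not called. Mmp15, a membrane-type MMP, was 4.59 and 8.62 CPM against 0.438 and 0 (124 UMIs against 1) and had an adjusted p of 0.0108.

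In Leydig-like cells, the steroid-producing cells, 1 of 15 genes rose and none fell, with 0.704% of all genes called higher and 1.44% called lower. Adamts2 was 48.6 and 31.1 CPM against 3.92 and 2.95 (log2 fold change 3.45 ± 0.38, adjusted p = 0.00519), a call that was lost with thinned counts (log2 fold change 3.45), in the shared cluster (3.81) and with all genes of any UMI kept (3.59), with an adjusted p of up to 0.0346. Timp1, which had risen in 3 other types, was 184 and 141 CPM against 140 and 81.3 and was not called (log2 fold change 0.48, adjusted p = 0.362). Its change was lower than the mean of the other somatic types (difference -2.10, adjusted p = 0.000238), as was that of Mmp19 (difference -2.83, adjusted p = 0.000177), with 6.16% of all genes called in this test. Timp2 was 341 and 230 CPM against 672 and 875 in the testes, a log2 fold change of -1.53 ± 0.33 that did not reach the threshold (adjusted p = 0.0343), and Adamts1 was 85.8 and 56.7 against 18.8 and 3.83 (2.58 ± 0.58, adjusted p = 0.0386). The Leydig markers also differed between the groups. Star was 37.2 and 10.6 CPM in the TOs against 399 and 719, and Cyp17a1 was 1155 and 80.5 against 3831 and 11058. Insl3 was 2251 and 150 against 3341 and 1734, and Cyp11a1 was 2676 and 1296 against 3126 and 2815. Hsd3b1 went the other way, at 2857 and 1878 against 1478 and 996, and the part of these markers was not tested.

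Adamts2 thus stood out for its differences between types. Its change was called in Sertoli-like and Leydig-like cells, while it was 147 and 136 against 169 and 166 CPM in peritubular myoid-like cells, where the difference from the other types was -2.75 (adjusted p = 4.99e-05). Its levels in stroma-like and peritubular myoid-like cells overlapped between libraries in both groups, so the order of these types was not settled.

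In macrophage-like cells, Mmp12 was the gene called. It was 567 and 221 CPM in the TOs against 13.5 and 0 in the testes, from 1125 and 989 UMIs against 10 and 0. The groups did not overlap, and the pooled level was 44.8 times higher (log2 fold change 5.98 ± 0.75, adjusted p = 0.000169). The zero in testis replicate 2, of 624329 UMIs of that type, allows a level of up to 4.81 CPM. MMP12 cuts elastin and is a product of macrophages, and the RefSeq promoter of its downstream start is the first printed above. With DESeq2 the log2 fold change was 5.99 and the adjusted p was 0.0276, and without testis replicate 1 the gene was not compared. Of 6 genes compared this 1 rose and none fell, with 2.54% of all genes called higher and 12.2% called lower, and with 3.61% called in the test of differences between types. A few Mmp12 UMIs were also found in stroma-like cells of the TOs, at 4.67 and 0.333 CPM, and none in those of the testes. Timp2 was 528 and 390 CPM against 1061 and 1012 (log2 fold change -0.96 ± 0.28, adjusted p = 0.0309), and Mmp14 was 11.1 and 76.3 against 59.2 and 72.1 (adjusted p = 0.776), with the 2 TO libraries far apart.

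**Figure D4:**
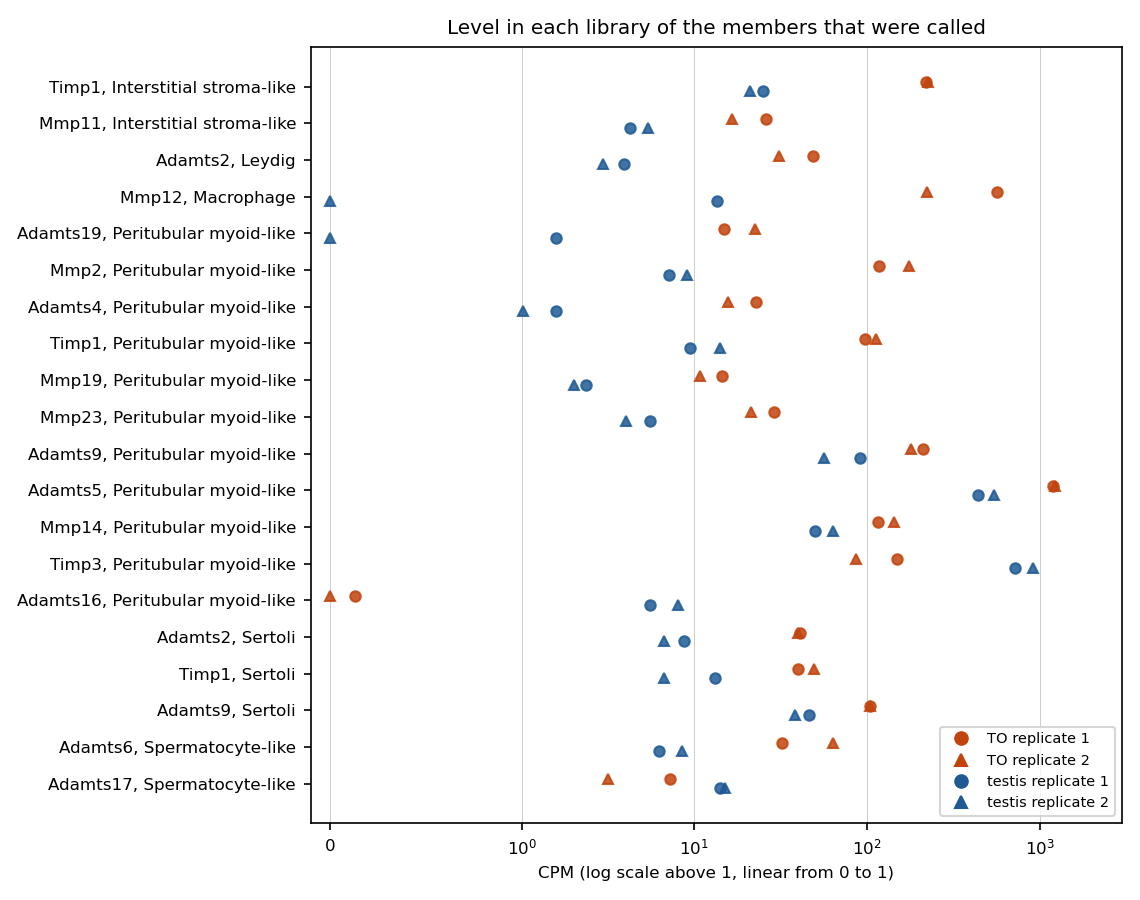
CPM in each library of the 20 called comparisons, on an axis that is logarithmic above 1 CPM and linear below. The TO libraries lie to one side of the testis libraries in all 20, which were chosen by a test on these same libraries, so this adds no support. Mmp12 is the only gene called in macrophage-like cells.

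The germ cells held few of these transcripts. Of 4 genes compared in spermatogonia-like cells, Adamts10, Adamts17, Adamts19 and Mmp11, none was called by edgeR, 1 passed an unadjusted p below 0.05, and DESeq2 called 0; 0.197% of all genes were called higher and 8.81% lower there. In spermatocyte-like cells, Adamts6, whose substrates include matrix microfibril components, was 32.3 and 63.9 CPM against 6.24 and 8.49 (log2 fold change 2.53 ± 0.43, adjusted p = 0.000387), and Adamts17 was 7.19 and 3.18 against 14.0 and 15.0 (log2 fold change -1.77 ± 0.50, adjusted p = 0.00970). These 2 of 6 genes stand beside 16.4% of all genes called higher and 24.8% called lower in this type, so the calls were not set apart from the background. The call of Adamts17 was lost in 10 of 17 alternatives, some of which used looser thresholds and could not lose it. DESeq2 was among those that lost it (-1.85, adjusted p = 0.0229), and the value was -0.84 without Harmony. The call of Adamts6 was lost without TO replicate 2 (1.81). In spermatocyte-like cells of the TOs, the spermatogonia markers summed to 931 and 1025 CPM against 141 and 92.2 in the testes. The Sertoli markers summed to 347 and 122 against 29.9 and 22.1, and the stroma markers to 219 and 95.3 against 25.6 and 18.4. The spermatocyte markers also differed. Dmc1 was 637 and 819 CPM in the TOs against 116 and 141, and Meiob was 223 and 265 against 72.2 and 170. Sycp3 was 1947 and 2843 against 684 and 1415. Piwil1, at 31.1 and 19.9 against 262 and 242, and Cdk1, at 76.7 and 81.0 against 104 and 219, went the other way. The part of these markers, and whether the groups held the same meiotic stages, was not tested. Adamts5, at 1192 and 1220 CPM in peritubular myoid-like cells of the TOs, was at 10.9 and 8.20 CPM in the spermatogonia-like cells, which is the size of signal against which low levels in germ cells may be read.

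Spermatid-like cells held 56.9% and 67.3% of the UMIs in testis replicates 1 and 2, but most of these genes had a smaller part there. Of 31 genes with at least 50 testis UMIs, 4 had a larger share in both. Mmp1b was at 97.0% and 98.8%, Adamts20, a proteoglycanase, at 92.4% and 94.6%, Mmp24, a membrane-type MMP, at 91.8% and 87.2%, and Timp4, the least abundant inhibitor, at 88.2% and 90.7%. Their levels in spermatid-like cells were low, with Mmp24 at 21.0 and 8.2 CPM, Adamts20 at 10.5 and 6.1 and Mmp1b at 2.5 and 2.6. Adamts16 was at 77.3% and 67.1%. Timp2 was at 26.6% and 26.3% and overlaps Cep295nl on the same strand, so its UMIs may include that gene. Spermatid-like cells of the TOs, 58 and 40 of them, were not compared, because those of TO replicate 1 held only 2 of 6 spermatid markers.

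**Figure D5:**
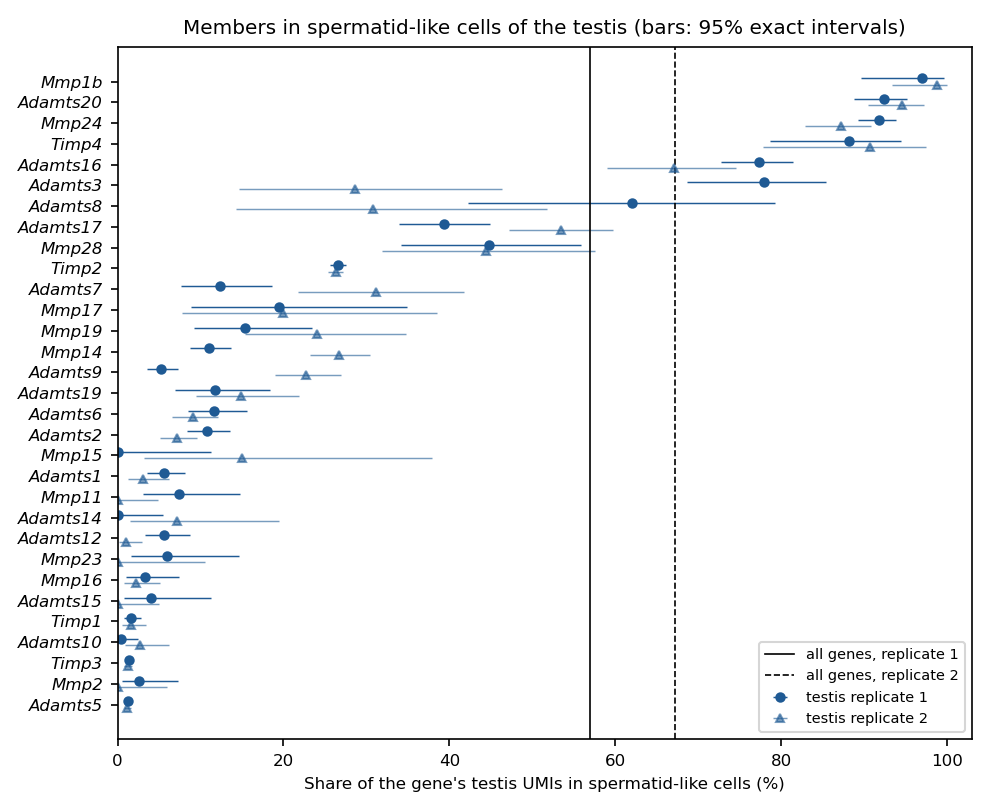
Share of a gene's testis UMIs found in spermatid-like cells, with 95% exact intervals for counting error, for the 31 genes with at least 50 testis UMIs; lines mark the share of all UMIs, 56.9% and 67.3%. Mmp1b, Adamts20, Mmp24 and Timp4 lie to the right of both lines.

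Of 26 other genes of this system, including proprotein convertases, plasminogen activators, proteoglycan targets and inhibitors of other classes, 13 comparisons were called, namely 3 of 10 in Sertoli-like, 1 of 9 in Leydig-like, 1 of 7 in macrophage-like, 5 of 13 in peritubular myoid-like, 2 of 16 in stroma-like and 1 of 8 in spermatocyte-like cells, beside the shares of all genes given above for each type. In spermatogonia-like cells 0 of 8 were called by edgeR and by DESeq2, and 2 had an unadjusted p below 0.05 in edgeR. Plau, urokinase, which activates plasminogen, rose in macrophage-like cells from 21.5 and 14.4 CPM to 206 and 81.0 (log2 fold change 3.18) and fell by 2.69 in stroma-like cells. Furin, a proprotein convertase that activates many of these enzymes, rose in peritubular myoid-like cells (log2 fold change 1.29), as did Lrp1, a receptor that clears them (1.07). Adamtsl1, an ADAMTS-like protein with no protease domain, fell by 3.41 and Pcsk6, another convertase, fell by 3.24 in the same cells. In Sertoli-like cells, Bcan, brevican, rose from 1.32 and 0.957 CPM to 33.1 and 48.2 (5.18), and Serpine2, an inhibitor, from 4.82 and 1.91 CPM to 100 and 76.3 (4.63), while Pcsk6 fell by 1.23. Reck, a membrane inhibitor of MMPs, rose in spermatocyte-like cells from 34.7 and 32.4 CPM to 125 and 187 (2.02), Papln fell by 3.26 in stroma-like cells and Pcsk5 fell by 1.83 in Leydig-like cells. Dissociation can induce immediate-early genes, of which 7 of 12 were called in peritubular myoid-like cells, 6 of 7 in Sertoli-like cells, 3 of 12 in stroma-like cells and 2 of 11 in macrophage-like cells, all higher in the TOs. In Leydig-like cells 0 of 12 were called by edgeR, 7 had an unadjusted p below 0.05 and DESeq2 called 2. The shares of all genes called in each type stand above, and the part of these genes in the changes of the enzymes was not tested.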

How the data were processed

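Single cells of 2 TO and 2 testis libraries had been profiled by 10x Genomics 3′ RNA-seq. Per the submitters' processing notes and the file headers, the authors deposited raw UMI counts per gene and barcode, made with Cell Ranger 7.1.0 on mm10, of which the annotation and the use of strand are not given in the sources used here. Filters on genes (1000 to 5000), UMIs (up to 20000) and mitochondrial share (up to 10%) were applied per cell, doublets were removed with Scrublet (scanpy 1.11.5), and libraries were joined with an own implementation of Harmony and clustered at resolution 1. Clusters were named from marker genes, and a type was compared if each library had at least 10 cells and 3 detected markers. A cluster was left unnamed where markers of another type or pericyte genes led it. The pericyte genes, and the use of all types' markers for this, were added after the clusters were seen. Somatic clusters of 1302, 510 and 252 cells were left unnamed in this way and were in no type compared. UMIs were summed per library and type and tested with edgeR 4.0.16 (R 4.3.3; quasi-likelihood F test, TMM, filterByExpr, Benjamini-Hochberg over all genes compared). Genes whose CPM in all other cells was at least 5 times that of the type in either group were left out, in place of the study's unstated rule. Scripts were tested on simulated data. With 2 libraries against 2, an exact two-sided permutation test cannot go below p = 0.33, so the single-gene p-values rest on the spread pooled over genes. The types were also compared by an interaction contrast with library as a term. Gene positions are those of the reference annotation on GRCm38, and promoters come from RefSeq, GRCm38.p6. Genes were named in the text where called, or where their mean reached 50 CPM in a group, and a few others, such as Mmp15 in Sertoli-like cells and Adamts8 in peritubular myoid-like cells, were chosen after their values were seen. The genes and lists were chosen with earlier results of these data known. Intervals cover counting error only. Alternatives are given in the closing section. The value of 1 of the other genes of the system is not reported here.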

Additional observations from a re-analysis of the deposited data

Results flagged for a closer look

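In 7 comparisons, the change between TOs and testes in 1 somatic type differed from the mean change of the other somatic types, by the interaction contrast of edgeR's quasi-likelihood test (adjusted p below 0.01). The test is reported for the 16 genes called in some type. The calls were 1 of 9 genes compared in Sertoli-like, 2 of 7 in Leydig-like, 2 of 14 in peritubular myoid-like and 2 of 14 in stroma-like cells. Over all genes, 11%, 6.16%, 3.49% and 2.67% were called in these types, and the share in Sertoli-like cells was at that level. The 16 genes were chosen by calls in the same libraries, so the shares over all genes are not a like background for them. The contrasts are also not separate, since each type enters the mean against which the others are set. In macrophage-like cells 3 genes were compared with no call, and none of these had an unadjusted p below 0.05. Timp3 had a difference of -3.05 on the log2 scale in peritubular myoid-like cells and 2.10 in Sertoli-like cells. Adamts2 had a difference of -2.75 in peritubular myoid-like cells and -2.31 in interstitial stroma-like cells. Adamts5 had a difference of -2.76 in interstitial stroma-like cells. In Leydig-like cells, Timp1 had a difference of -2.10 and Mmp19 of -2.83. With the mean taken only over other types in which the gene itself was compared, an alternative chosen after seeing the data, 6 of the 7 were called and Adamts5 was not (-1.62, adjusted p = 0.0565).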

How the results depend on the processing

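Of the 20 called comparisons, 10 were called under every alternative that gave a value, 10 lost the call under at least 1 and none changed sign. The alternatives include an adjusted p below 0.05 and no fold threshold, under which a called comparison could not lose its call. Adamts17 in spermatocyte-like cells, Mmp11 in stroma-like cells, and Mmp14, Mmp19 and Adamts5 in peritubular myoid-like cells lost it most often. The number of genes called, as reported, was 3 in Sertoli-like, 1 in Leydig-like, 1 in macrophage-like, 11 in peritubular myoid-like, 2 in stroma-like, 0 in spermatogonia-like and 2 in spermatocyte-like cells, and the cause of each change below was not tested. An adjusted p below 0.05 gave 7 in Sertoli-like, 4 in Leydig-like, 2 in macrophage-like, 6 in stroma-like and 5 in spermatocyte-like cells. DESeq2 gave 5, 4, 2, 4 and 1 in these types. All genes with any UMI gave 8, 0, 2, 12 and 0. With no gene left out there were 8 in Sertoli-like, 1 in spermatogonia-like and 5 in spermatocyte-like cells, and leaving genes out from 2 times gave 1 in Sertoli-like, 0 in Leydig-like and 1 in stroma-like cells. Thinning gave 0 in Leydig-like, 1 in stroma-like and 1 in spermatocyte-like cells, RLE size factors and no upper cell limits each gave 1 in stroma-like cells, and no doublet removal gave 7 in Sertoli-like and 5 in macrophage-like cells. In the 1 shared cluster, chosen after seeing the data, there were 0 in Leydig-like, 6 in peritubular myoid-like, 1 in stroma-like and 1 in spermatocyte-like cells. Leaving out 1 library gave 3 to 5 in Sertoli-like, 1 to 2 in Leydig-like, 1 to 2 in macrophage-like, 6 to 10 in peritubular myoid-like, 1 to 5 in stroma-like and 0 to 2 in spermatocyte-like cells, and 5 to 7 of the differences between types. The 13 calls of other pathway genes became 21 at an adjusted p below 0.05, 7 with genes left out from 2 times and 6 in the shared cluster, and the 18 calls of immediate-early genes became 30 at an adjusted p below 0.05, 28 with DESeq2, 37 with any UMI, 33 with no gene left out, 10 from 2 times and 10 to 38 without 1 library.

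Replicate numbers are shared by the groups, but same-numbered libraries deviated together with correlations of 0.03 to 0.16 over 2 pairs, and nothing in the labels ties them, so they were not taken as pairs. The replicate block gave 7 in Sertoli-like, 2 in macrophage-like, 7 in stroma-like and 1 in spermatocyte-like cells, and 33 calls of immediate-early genes.

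Changes of sign occurred in 14 values, all of comparisons that were not called. In stroma-like cells, Adamts10 was -0.36 after thinning, -0.37 in the shared cluster and -0.26 to 0.25 without 1 library (-0.073 without testis replicate 1), Adamts19 was -0.19 to 0.73 without 1 library (-0.071 without testis replicate 1), and Adamts2 was -0.051 in the shared cluster and -0.17 to 0.39 without 1 library (-0.072 without TO replicate 1). Timp2 was 0.056 with any UMI and -0.26 to 0.057 without 1 library, and Timp3 was -0.81 to 0.011. Mmp14 in macrophage-like cells was -0.49 to 0.47 and Adamts1 in peritubular myoid-like cells was -0.096 to 0.58 without 1 library. The contrasts between types lost their call for Timp3 in Sertoli-like cells (2.00) and Mmp19 (-3.32) without testis replicate 1, and for Adamts2 (-1.74) and Adamts5 (-2.28) in stroma-like cells without testis replicate 2. Endothelial-like and spermatid-like cells could not be tested, stroma-like cells could not be tested without Harmony, and the contrasts without Harmony were not run.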
